A study of Ambystoma mexicanum with 198 samples.

Results

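The comparison covered the span from 3 to 9 days post-amputation (DPA) in regenerating forelimbs of the axolotl (*Ambystoma mexicanum*), the days in which damaged tissue next to the cut is taken apart before a bud can be seen. The 10 arrays of 9 DPA were set against the 10 arrays of 3 DPA, while the other 178 arrays of the series belong to other days, and every probe that was not an Affymetrix control entered, 20035 probes in all. Limbs were cut through the forearm (mid zeugopod) of anesthetized animals 6 to 10 months old, and the labels give no genotype, transgene or drug that separates the groups. The animals came from several crosses and differed in size, and how crosses, ages and sizes fell over the 2 days is not given in the sources used here. Each array measured total RNA from the distal 1 mm of 1 limb, a mixture of wound epidermis, stump tissue and cells that had moved in. Whether limbs of 1 animal served at both times is not given in the sources used here, and *P* values therefore measure the spread between these samples. The values were log2 intensities normalized by the authors. In such bulk tissue, fewer cells of a type and less RNA in each of them cannot be told apart.

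After the wound epidermis has closed over an amputated salamander limb, neutrophils and then macrophages clear debris, osteoclasts resorb the cut bone ends, and proteases loosen the matrix around muscle fibers and connective tissue. Muscle fibers near the cut are lost or broken up, and connective tissue cells that have left their matrix gather under the epidermis as a blastema, the mound of dividing cells from which the limb regrows. The adult matrix of type I collagen and laminin-rich basement membranes gives way to a transitional matrix rich in fibronectin, tenascin and hyaluronan. Among the genes known for these steps are those of the sarcomere, the contractile unit of muscle, the osteoclast protease *ctsk*, and *kazald1*, which is known from axolotl work as a gene of the blastema.

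The arrays were alike in their normalized values. Array medians ran from 5.75 to 5.89, and Pearson's *r* across probes between arrays of the same day was 0.971 to 0.992. Both were taken after the authors' normalization across arrays, so they do not measure the quality of the RNA or hybridization, which was not tested. The labels number the replicates 1 to 10. From 3 to 9 DPA, replicates 1 to 5 carry sample codes of a first letter series and replicates 6 to 10 of a second, each unchanged between the 2 days. The meaning of the letters is not given, so the values of each set are printed where they differed. On day 0 both sets carry other letter series, and so do replicates 6 to 10 at 18 DPA. Where values are set beside those days, day and letter series cannot be told apart.

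Between 3 and 9 DPA, 480 probes rose and 583 fell. A probe was called when its adjusted *P* from limma was under 0.05 over all probes and its mean log2 level differed by at least 0.58, which is 1.5-fold. Up probes were 2.4% of those tested and down probes 2.91%. The decreases were the larger ones. At least 8-fold differences were seen in 66 down probes and 5 up probes, and at least 2-fold differences in 331 and 148. All 1063 called probes had the same direction in both sets of replicates. The calls were made on the arrays of both sets together, so this agreement is not independent of them. Tested by themselves, replicates 6 to 10 gave the same call for 447 of the 1063 (42.1%). Replicates 1 to 5 did so for 835 (78.6%). A single gene symbol was paired with 10951 probes, for 8639 genes, and each gene was then read from its probe with the highest mean. Of these genes, 256 rose (2.96%) and 241 fell (2.79%), while 1.44% were called and had no overlap between the samples of the 2 days. The median difference over all named genes was 0.03. Probes without a symbol made up 196 of the up probes and 283 of the down probes.

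**Figure D1:**
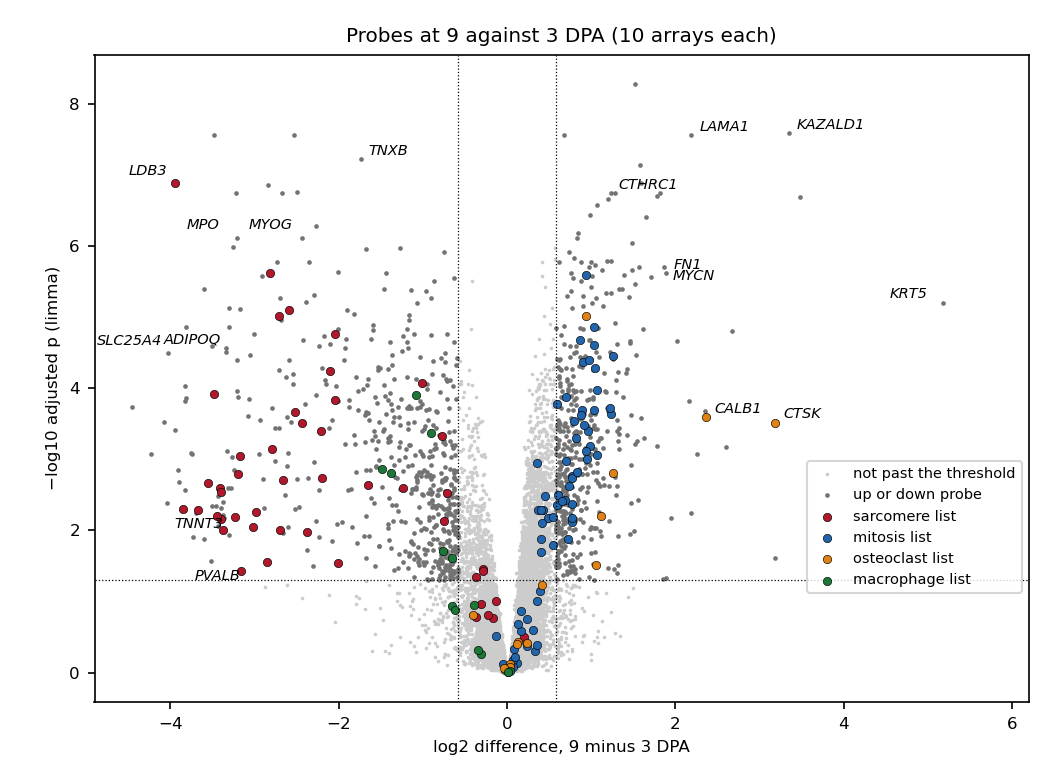
Log2 difference from 3 to 9 DPA (horizontal axis) against −log10 of the limma adjusted *P* (vertical axis) for all 20035 probes, with 4 gene lists in color and dotted lines at the thresholds. Sarcomere genes spread far to the left, mitosis genes lie in a band at low positive differences, and the probe named *krt5* is the one farthest to the right.

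Muscle genes led the decreases among named genes. Of 47 sarcomere genes measured, 38 fell and none rose (80.9% against 2.79% of all named genes), and the median difference was −2.52. There was no overlap between the days in 17 of the 38, while 1.44% of all named genes were called without overlap. The methods' *t* tests called 36 of the 47 sarcomere genes. *ldb3*, a protein of the Z-disc, was between 7.97 and 9.10 at 3 DPA (median 8.56) and between 3.32 and 5.98 at 9 DPA (median 4.72). The 10 samples of 9 DPA all lay below the 10 of 3 DPA, and the mean fell 15.4-fold (log2 difference −3.94 ± 0.32, SE; limma adjusted *P* = 1.32e-07). *tnnt3*, troponin T of fast muscle, was between 10.64 and 12.79 at 3 DPA (median 11.88) and between 3.31 and 10.29 at 9 DPA (median 9.19), again without overlap. Its difference of −3.85 ± 0.90 had an adjusted *P* of 0.00503.

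The myosin light chain *myl3* fell by 3.67 on the log2 scale, *tnnc1*, which binds calcium on the thin filament, by 3.56, and *myom2*, a protein of the M-band, by 3.48. The ranges of *myl3* and *tnnc1* overlapped between the days. *acta2* and *csrp2*, named for smooth muscle, fell by 3.75 and 3.83 in the same samples as the skeletal genes. The symbols are those of the platform table, and near-identical actins, myosins and troponins may share probes. A second probe named *acta2* fell by 3.31, and the last differed by −0.55 without passing the size threshold. The other probes named *csrp2* and *myom2* differed by −0.34 (adjusted *P* = 0.837) and −0.02 (adjusted *P* = 0.873).

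Genes around the contractile apparatus fell more selectively. In muscle calcium release and membrane genes, 11 of 23 fell and none rose (47.8% against 2.79% of all named genes), with a list median of −0.40. The calcium buffer *pvalb* differed most (−3.51 ± 1.05, adjusted *P* = 0.0271), and its call was lost without replicate 2 of 9 DPA (−3.08, adjusted *P* = 0.0515) or without replicate 3 (−2.99, adjusted *P* = 0.0511). Other *pvalb* probes fell by 3.74 and 3.73 (limma adjusted *P* = 0.000839 and 0.0124), and the last differed by −1.28 without passing. *casq1*, which stores calcium in the sarcoplasmic reticulum, fell by 3.21, and the calcium pump *atp2a1* by 3.17, although its other probe was at 0.03. *tmem38a*, a cation channel of the same membrane, fell by 2.54, from a range of 9.05 to 10.22 to a range of 6.46 to 7.80. Of 15 muscle energy genes, 5 fell and none rose (33.3% against 2.79%). They were led by *slc25a4*, which exchanges ATP and ADP across the mitochondrial membrane (−4.03 ± 0.54, adjusted *P* = 3.19e-05), and by muscle creatine kinase *ckm* (−3.37 ± 0.80, adjusted *P* = 0.00599). The glycolytic enzyme *eno3* fell by 1.08, glycogen phosphorylase *pygm* by 0.96 and *pgam2* by 0.92. *gatm*, which makes the precursor of creatine, fell by 3.50.

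The genes that regulate muscle did not move as one. *myog*, the transcription factor of differentiating muscle, was between 5.92 and 8.03 at 3 DPA (median 7.33) and between 4.23 and 5.14 at 9 DPA (median 4.58). It fell 5.39-fold (−2.43 ± 0.23, adjusted *P* = 7.64e-07) with no overlap, and *trim63*, a ubiquitin ligase of muscle wasting, fell by 1.26. In contrast, *cdh15*, a cadherin of muscle precursor cells, rose by 0.98 ± 0.13 with no overlap between the days, and *eya2*, a transcriptional coactivator in muscle precursors, rose by 0.94. In all, 2 of 15 regulators rose and 3 fell (13.3% and 20% against 2.96% and 2.79% of all named genes), and the median was −0.05. The last of those that fell was *myf5*, a transcription factor of muscle precursors (−0.72), whose call was lost without any 1 of 5 arrays.

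The 9 DPA limbs differed widely in how much muscle signal they had left. The mean log2 level over the 47 sarcomere genes was 4.90, 4.99 and 5.22 in replicates 1, 2 and 3 of 9 DPA, and 7.30 and 7.72 in replicates 4 and 5. In replicates 6 to 10 it was 7.36, 7.41, 7.06, 7.68 and 8.03. All 10 samples of 3 DPA were between 8.23 and 9.55. The 3 lowest limbs lay near the level of 18 DPA, when the list mean was 4.59 ± 0.12 (SD, n = 10), while the other 7 lay nearer to that of 7 DPA (7.91 ± 0.50, SD, n = 10). *tnnt3* shows the same split, with 3.31, 3.68 and 3.80 in replicates 1 to 3 and 8.89 or more in the others, and *ckm* was 5.68, 6.66 and 6.88 in those limbs and 11.23 or more in the rest. The SD of *tnnt3* was 0.69 at 3 DPA and 2.95 at 9 DPA, and the median SD over the sarcomere genes went from 0.48 to 1.13.

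The decrease was also seen in replicates 6 to 10, which hold none of those 3 limbs. There the median difference over the sarcomere genes was −1.48 and 25 of them were called, against −3.13 and 36 in replicates 1 to 5. *tnnt3* differed by −1.69 in the second set and by −6.02 in the first, *ldb3* by −3.13 and −4.76, and *slc25a4* by −2.67 and −5.39. The unadjusted *P* of the difference between the sets was under 0.05 for 29 of the 47 genes, and for 1961 of all 20035 probes. None passed after adjustment over all probes, where the lowest adjusted *P* in the list was 0.194 (limma interaction of day and set).

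**Figure D2:**
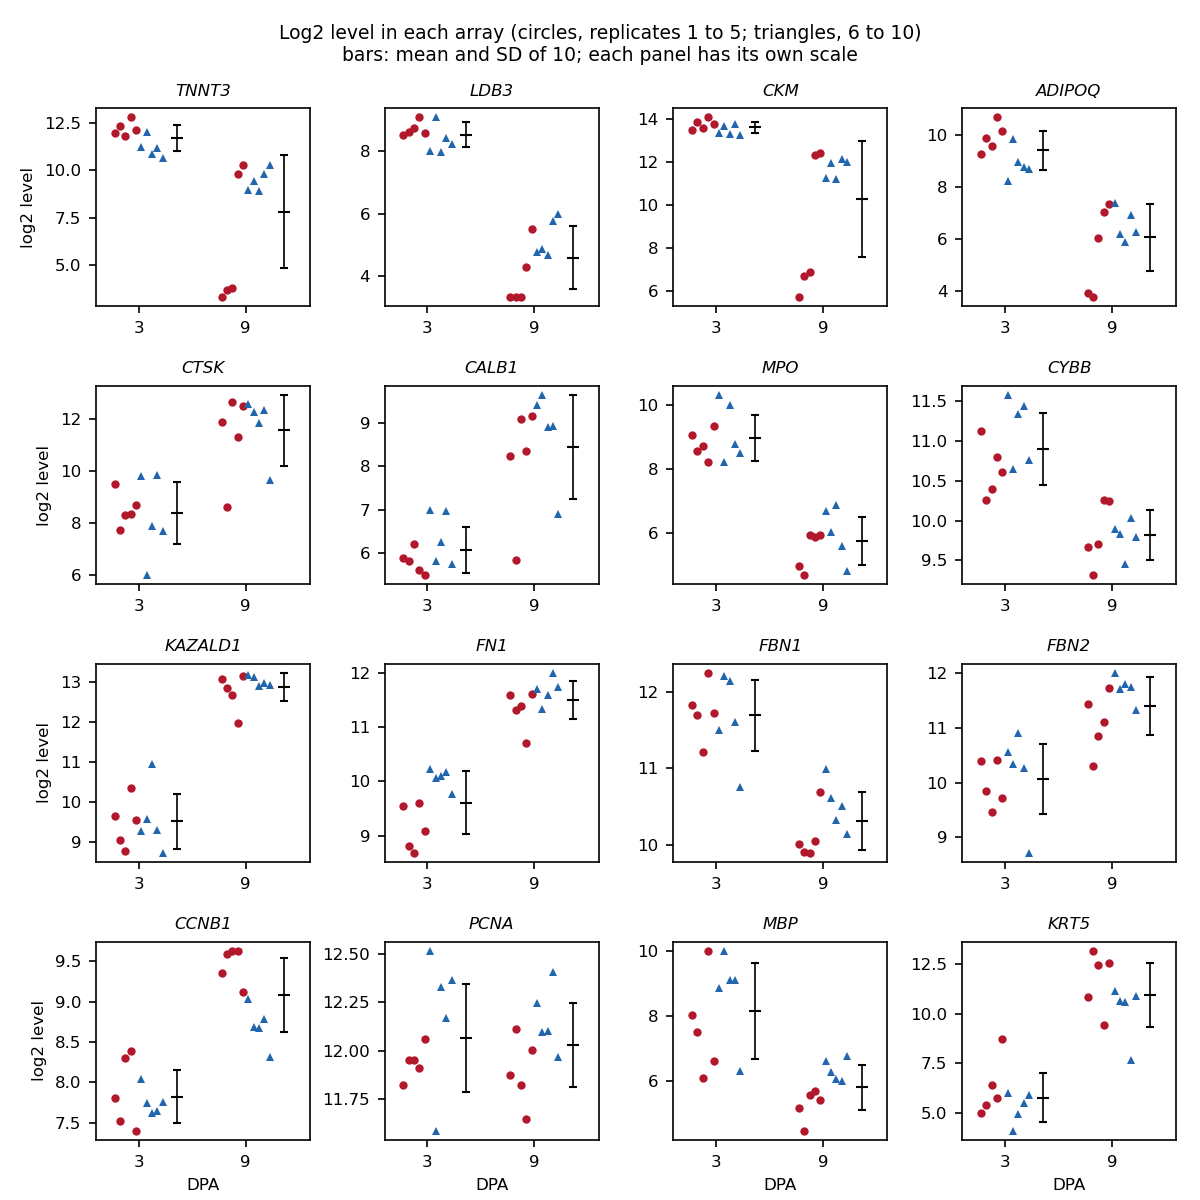
Log2 level of 16 genes in each array at 3 and 9 DPA (horizontal axis), as circles for replicates 1 to 5 and triangles for replicates 6 to 10, with the mean and SD of the 10 arrays beside them. In *tnnt3*, *ckm* and *ldb3*, replicates 1 to 3 of 9 DPA lie lowest, in *ctsk* and *calb1* replicates 2 and 10 of 9 DPA lie lowest, and *kazald1* and *fn1* separate the days completely.

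The mean muscle signal was lower on each later day sampled in the span. Over the sarcomere list it was 10.35 before the span, in day 0 tissue, 8.93 at 3 DPA, then 8.72, 8.38 and 7.91 on days 4, 5 and 7, and 6.77 at 9 DPA. The SD over the 10 limbs of a day was 0.38 at 3 DPA and 1.23 at 9 DPA, with 0.61 and 0.50 on days 5 and 7. *ldb3* went from a mean of 8.53 through 8.26, 7.51 and 6.45 to 4.58, and *myog* from 7.06 through 6.37, 5.74 and 5.10 to 4.63.

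A few genes of fat and myelin fell. *adipoq*, the fat hormone adiponectin, was between 8.23 and 10.69 at 3 DPA (median 9.43) and between 3.75 and 7.37 at 9 DPA (median 6.22), a fall of 10.1-fold with no overlap (−3.34 ± 0.44, adjusted *P* = 3.09e-05). The other probe with this name was at 0.03 (adjusted *P* = 0.859). *dgat2*, which makes triglyceride, fell by 1.39, and these were the only 2 of 12 fat cell genes called (16.7% against 2.79%). The list median was −0.09, and 4 of the 12 were above 0. *mbp*, a structural protein of myelin, was between 6.08 and 10.03 at 3 DPA and between 4.44 and 6.77 at 9 DPA and fell by 2.37 ± 0.49 (adjusted *P* = 0.00186), with the ranges overlapping and its second probe at −0.20. In the list of Schwann cell and nerve genes, 2 of 21 rose and 2 fell (9.52% each, against 2.96% and 2.79% of all named genes). The neuronal tubulin *tubb3* (0.85) and the neurotrophin receptor *ngfr* (0.58) rose, and *mbp* and the myelin protein *pmp22* (−0.77) fell. The call of *ngfr* was lost without any 1 of 11 arrays and that of *pmp22* without any 1 of 2.

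Several osteoclast genes rose. Of 15 measured, 6 rose and none fell (40% against 2.96% of all named genes), with a list median of 0.24. The study had grouped the members *ctsk*, *calb1* and *acp5* by their course in this series, so these counts are not independent of the data. The list does not hold *mmp13*, which the study groups with osteoclast activity and which fell by 1.17 (limma adjusted *P* = 0.0335). *ctsk*, the protease with which osteoclasts digest bone collagen, was between 6.00 and 9.87 at 3 DPA (median 8.33) and between 8.64 and 12.67 at 9 DPA (median 12.08). The ranges overlapped through replicates 2 and 10 of 9 DPA alone, and the mean rose 9.09-fold (3.18 ± 0.53, adjusted *P* = 0.000306). Its second probe rose by 2.25. *calb1*, a calcium-binding protein, rose 5.14-fold (2.36 ± 0.39, adjusted *P* = 0.000254). *ckb*, the creatine kinase of tissues other than muscle, rose by 1.26. *nfatc1*, the transcription factor that drives osteoclast formation, rose by 1.12, although its second probe was at −0.01. The αv integrin subunit *itgav* rose by 0.94, with its second probe at 0.39 and not called.

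*acp5*, the acid phosphatase by which osteoclasts are stained, rose by 1.05 ± 0.32 with an adjusted *P* of 0.0307. Its call was lost when 1 of 7 arrays was left out, replicates 2 or 3 of 3 DPA or replicates 1, 3, 5, 6 or 9 of 9 DPA, with differences of 0.94 to 1.01 and adjusted *P* values of 0.0528 to 0.0596. Outside the list, the carbonic anhydrase *ca7* rose by 2.16 ± 0.34. Of 18 subunits of the V-ATPase, the pump that acidifies lysosomes and the space under an osteoclast, 1 rose (5.56% against 2.96% of all named genes). It was *atp6v1c2* (1.00 ± 0.27, adjusted *P* = 0.0131).

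These genes were low in the same 2 limbs. In replicates 2 and 10 of 9 DPA, *ctsk* was 8.64 and 9.68 while the other 8 limbs were at 11.32 or more. In the same limbs *calb1* was 5.85 and 6.90 against 8.22 or more in the others, *acp5* 7.30 and 7.64 against 8.63 or more, *ckb* 11.65 and 12.19 against 13.08 or more, and *ca7* 8.46 and 9.00 against 9.79 or more. Replicate 2 was among the 3 limbs with the least muscle signal at 9 DPA, and replicate 10 had the highest sarcomere mean of that day. The brighter probe of the globin *hbg2*, named in a table of the study, was also low in these limbs (11.40 and 10.04) and in replicate 1 (11.85), against 13.01 or more in the other 17 arrays of both days. The part of blood content in the osteoclast values was not tested. The osteoclast list mean was 6.87 ± 0.22 (SD, n = 10) at 3 DPA, then 7.19 on day 5, 7.52 on day 7 and 7.57 ± 0.40 at 9 DPA. *ctsk* itself had a mean of 9.18 on day 0, 8.39 at 3 DPA and 11.54 by day 7, and *calb1* a mean of 5.74 on day 0, 6.41 on day 5 and 7.40 on day 7.

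Of 13 macrophage genes, 6 fell and none rose (46.2% against 2.79%), and the list median was −0.65. At an unadjusted *P* under 0.05 none was higher at 9 DPA, and the methods' *t* tests called none higher. The falling members included 3 subunits of the NADPH oxidase, the enzyme with which phagocytes make superoxide. *ncf1* was between 6.06 and 8.66 at 3 DPA (median 7.49) and between 5.58 and 7.54 at 9 DPA (median 5.84), and fell by 1.49 ± 0.29 (adjusted *P* = 0.00135). *cybb* fell by 1.08 ± 0.16 and *cyba* by 0.90 ± 0.16. The heme-degrading enzyme *hmox1* fell by 1.38, the lysosomal protein *cd68* by 0.76 and the calcium-binding protein *aif1* by 0.65. *csf1r*, the receptor for a macrophage growth factor, and the scavenger receptor *marco* did not pass (−0.31 and −0.65, adjusted *P* = 0.551 and 0.115). Nor did the 2 probes named *mrc1* in a table of the study (−1.25 and −0.38, adjusted *P* = 0.118 and 0.64). The macrophage list mean was 9.69 at 3 DPA, 9.21 on day 5 and 9.03 at 9 DPA. The lowest limb of 9 DPA (8.28) was still above the highest of day 0 (7.74), whose samples carry other letter series.

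Few genes of granulocytes have a probe in the platform table. Several are named only in a supplementary table of the study, which lists genes that changed between neighboring days of this series, so their direction is not independent evidence and they stand here as single genes. Read from those probes, the neutrophil granule enzyme *mpo* was between 8.20 and 10.30 at 3 DPA (median 8.75) and between 4.70 and 6.89 at 9 DPA (median 5.92). It fell 9.26-fold with no overlap (−3.21 ± 0.31, adjusted *P* = 7.64e-07). The granule protease *prtn3* fell by 2.49 and the chemokine receptor *il8ra* by 2.84. The protease *ctsg* fell by 1.71, from a mean that was already lower at 3 DPA (8.1) than on day 0 (9.8). The mast cell protease *cpa3* fell by 1.94 without overlap, also from a mean already lower at 3 DPA (8.3) than on day 0 (9.8). Of 2 mast cell genes in the platform table, 1 fell (50% against 2.79% of all named genes). It was the receptor *kit* (−0.82), a call lost without any 1 of 8 arrays. The mean of *mpo* was 4.64 on day 0, 8.97 at 3 DPA, 7.42 on day 5 and 5.76 at 9 DPA. From the platform table, 1 of 2 neutrophil genes fell (50% against 2.79% of all named genes). It was *ptx3*, a pattern recognition protein that neutrophils store (−0.88). *tlr2*, a receptor for bacterial lipoproteins, fell by 1.38 (second probe −0.12, not called). It was the 1 member called of 11 cytokine and innate receptor genes (9.09% against 2.79% of all named genes). The 2 probes named *il1b* in the study's table, an inflammatory cytokine, were level between the days (0.05 and 0.11, adjusted *P* = 0.97 and 0.837). Probes named there for the chemokines *ccl19* and *cxcl14* were lower by 0.49 and 0.51 (limma adjusted *P* = 0.0119 and 0.0281), under the size threshold. The probe named *il8* differed by −0.47 (adjusted *P* = 0.49). None of 5 lymphocyte genes was called by limma or by the methods' *t* tests, and none had an unadjusted *P* under 0.05.

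Of 11 erythrocyte genes measured, 2 fell (18.2% against 2.79% of all named genes), the ammonia channel *rhag* (−0.88 ± 0.23) and the membrane skeleton protein *sptb* (−0.73 ± 0.18), and none rose. Of the 11, 9 were below 0, the list median was −0.13, and 2 to 4 were called when 1 array was left out. All 6 globin probes named in the study's table were lower at 9 DPA and none passed. Those named *hbg2* differed by −1.16 and −0.87 (adjusted *P* = 0.116 and 0.190), those named *hba2* by −0.97, −0.63 and −0.81 (adjusted *P* = 0.269, 0.07 and 0.0781), and that named *hbd* by −0.97 (adjusted *P* = 0.0651). The part of blood content in the leukocyte values was not tested.

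Of 7 matrix metalloproteinases with a probe in the platform table, 1 rose (14.3% against 2.96% of all named genes) and none fell. It was *mmp14*, which is anchored in the cell membrane. It was between 6.81 and 8.80 at 3 DPA and between 8.14 and 9.59 at 9 DPA, and differed by 0.78 ± 0.23 (adjusted *P* = 0.0213). The gelatinases *mmp2* and *mmp9* were level (0.14 and −0.14, adjusted *P* = 0.813 and 0.344). Collagenases and stromelysins are named only in the study's table. *mmp13* fell by 1.17 ± 0.37 with an adjusted *P* of 0.0335. Its call was lost without 1 of 8 arrays, replicates 1, 2, 3 or 5 of 3 DPA or replicates 1, 3, 5 or 9 of 9 DPA (−1.13 to −1.01, adjusted *P* = 0.0568 to 0.0645). Of 4 probes named *mmp3*, 1 fell (−1.14), and the others differed by −1.68 to −0.24. The 3 probes named *mmp1* differed by −1.80 to −0.08 and the probes named *mmp8* and *mmp10* by −0.35 and −0.73, none of them called.

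None of 7 inhibitors of these enzymes was called by limma or by the methods' *t* tests, and none had an unadjusted *P* under 0.05. Their differences lay between −0.11 and 0.15, with *timp1* at 0.04 (adjusted *P* = 0.932). In the plasminogen group of 15 genes, 2 rose without overlap (13.3% against 2.96%). *htra1*, a secreted serine protease, rose by 1.00 ± 0.11, although a second probe of this gene fell by 0.90 (adjusted *P* = 0.0104), and *tfpi*, an inhibitor of coagulation, rose by 0.88 ± 0.09. Of 15 ADAM and ADAMTS genes, 1 rose (6.67% against 2.96%), *adamtsl2* (0.97), a matrix protein without protease activity.

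The lists of intracellular breakdown genes were nearly flat, while single cathepsins differed. Of 40 lysosome and cathepsin genes, 1 fell (2.5% against 2.79% of all named genes) and none rose, with a median of −0.04. The one called was *ctsh*, a cathepsin (−1.42 ± 0.35), and at an unadjusted *P* under 0.05, 1 member was higher. The list does not hold the cathepsin *ctsk*, which was counted with the osteoclast genes and rose by 3.18. Further cathepsin probes named in the study's table are *ctsl1*, *ctsl2* and *ctsg*, which fell by 0.67, 1.58 and 1.71. None of 29 autophagy genes and none of 19 apoptosis genes was called by limma or by the methods' *t* tests. At an unadjusted *P* under 0.05, 7 autophagy genes (3 higher) and 7 apoptosis genes (5 higher) differed. The list medians were 0.01 and 0.10.

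**Figure D3:**
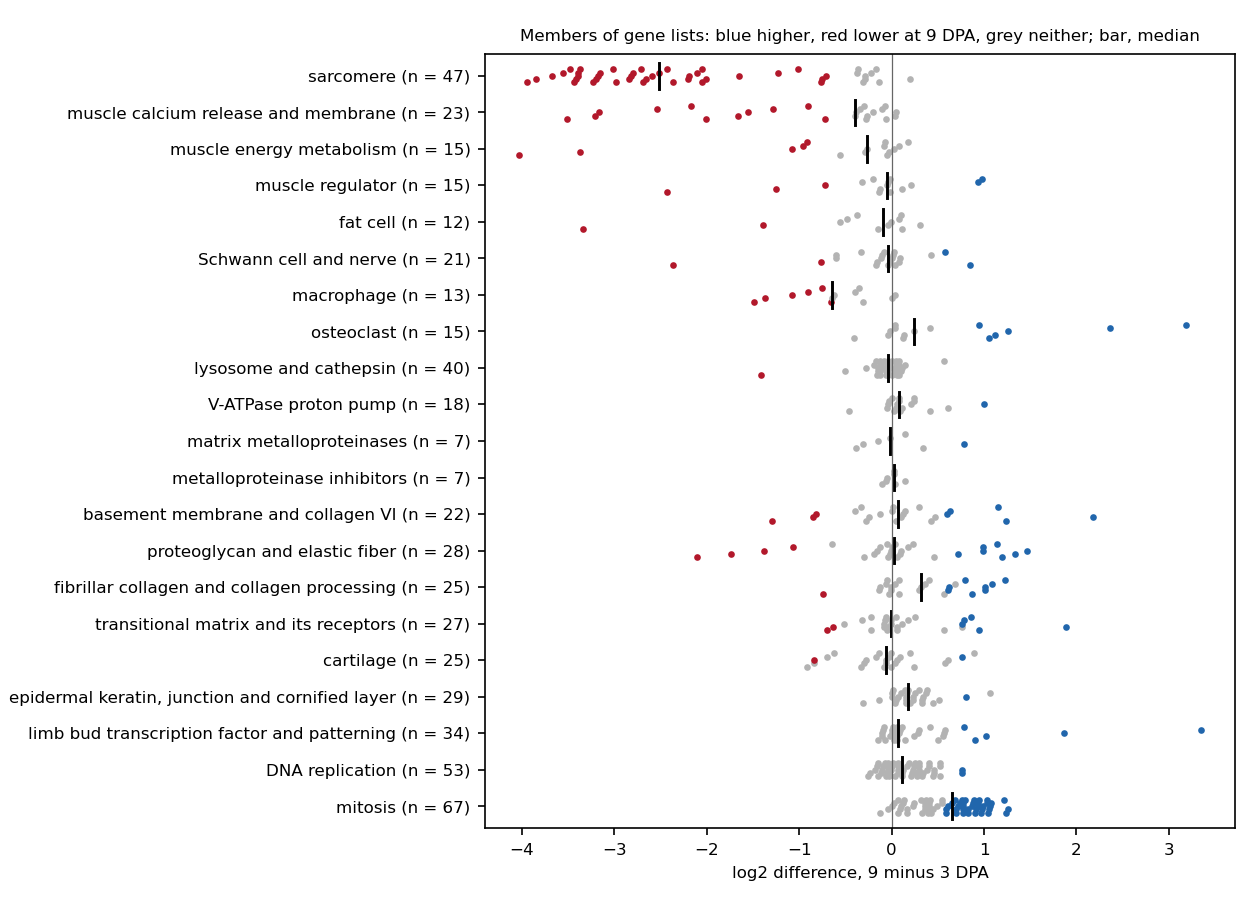
Log2 difference from 3 to 9 DPA (horizontal axis) of each measured member of 21 gene lists, 1 point a gene, with blue for genes that rose, red for genes that fell, grey for the rest and a bar at the list median. Muscle lists reach far to the left, the medians of the lysosome and inhibitor lists are near 0, and most mitosis genes but few DNA replication genes are blue.

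Matrix genes moved in both directions. Fibronectin, *fn1*, on which migrating cells crawl, was between 8.68 and 10.23 at 3 DPA (median 9.69) and between 10.71 and 12.00 at 9 DPA (median 11.59). It rose 3.69-fold with no overlap (1.89 ± 0.20, adjusted *P* = 2.4e-06). Its second probe was higher by 0.57 (adjusted *P* = 0.01), just under the size threshold. Tenascin C, *tnc*, stayed high at both days (13.58 and 13.83, medians) and did not reach the size threshold (0.25, adjusted *P* = 0.0497). Of 27 genes of the transitional matrix and its receptors, 5 rose and 2 fell (18.5% and 7.41% against 2.96% and 2.79% of all named genes). Without 1 array 1 to 3 fell. The integrin subunits *itgav* and *itgb5* rose by 0.94 and 0.86, *thbs2*, a thrombospondin, by 0.79, and the hyaluronan receptor *hmmr*, which also belongs to the mitotic spindle, by 0.77. The second probes of *itgb5* and *hmmr* were at 0.08 and 0.06 and the other probes of *thbs2* at −0.03 and 0.14, none of them called. The second *itgav* probe was higher by 0.39 (limma adjusted *P* = 0.00139), under the size threshold. Those that fell were the thrombospondin *thbs1* (−0.70) and the integrin subunit *itga6* (−0.64).

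Basement membrane genes moved both ways, 5 of 22 up (22.7% against 2.96% of all named genes) and 3 down (13.6% against 2.79%). *lama1*, the laminin chain of embryonic basement membranes, was between 4.81 and 6.5 at 3 DPA (median 5.68) and between 7.52 and 8.21 at 9 DPA (median 7.99). It rose 4.54-fold (2.18 ± 0.16, adjusted *P* = 2.74e-08), while its second probe was at 0.10 (adjusted *P* = 0.514). *lama2*, the laminin chain around muscle fibers and Schwann cells, fell by 1.30 ± 0.21, and the type IV collagen *col4a1* by 0.85 ± 0.19. *pxdn*, which crosslinks type IV collagen, rose by 1.24, and *col7a1*, which anchors epidermis to dermis, by 1.16. The other *pxdn* probes were at 0.34 and 0.31 and not called, while those of *col7a1* rose by 1.05 and 0.68. *col6a1* did not pass (−0.33, adjusted *P* = 0.0979).

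Genes for making and modifying collagen rose more often than they fell. Of 25, 8 rose and 1 fell (32% up against 2.96%), with a median of 0.32. *cthrc1*, a secreted protein of repair fibroblasts, was between 10.21 and 11.04 at 3 DPA (median 10.76) and between 11.59 and 12.26 at 9 DPA (median 11.93). It rose 2.34-fold (1.23 ± 0.10, adjusted *P* = 1.79e-07). *fkbp10*, *plod1* and *p4ha1*, which fold and hydroxylate collagen chains, rose by 1.01, 1.01 and 0.87, each without overlap. *col12a1*, a collagen on the surface of fibrils, rose by 1.08 on its brightest probe and by 0.93 on a second, and 3 more probes of the gene were not called. The 1 member that fell was *col1a1*, the main collagen of skin and bone (−0.74 ± 0.15, adjusted *P* = 0.00194). Its second probe differed by −0.29 without passing.

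The elastic fiber genes *fbn1* and *fbn2*, the 2 fibrillins, moved in opposite directions. *fbn1* was between 10.76 and 12.25 at 3 DPA (median 11.71) and between 9.89 and 11 at 9 DPA (median 10.23), a fall of 1.38 ± 0.18 (adjusted *P* = 2.27e-05). *fbn2*, the fibrillin of developing tissue, was between 8.71 and 10.91 at 3 DPA (median 10.30) and between 10.30 and 12.01 at 9 DPA (median 11.57), a rise of 1.33 ± 0.25 (adjusted *P* = 0.00071). In both genes the ranges overlapped between the days. The call of each rests on its brightest probe. The 2 other *fbn1* probes differed by −0.42 and −0.94, and the 4 other *fbn2* probes by −0.19 to 0.21, none of them called. In the whole list of proteoglycan and elastic fiber genes, 7 of 28 rose and 4 fell (25% and 14.3% against 2.96% and 2.79% of all named genes). *tnxb*, a tenascin of mature connective tissue, fell by 1.74 ± 0.13 with no overlap (adjusted *P* = 6.07e-08) and *aspn*, a small proteoglycan, by 2.11 ± 0.36. *kera*, a keratan sulfate proteoglycan, rose by 1.47 ± 0.24.

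Skeletal matrix showed less. Of 25 cartilage genes, 1 rose and 1 fell (4% each, against 2.96% and 2.79% of all named genes). The fibril collagen *col11a1* rose (0.76), with its second probe at 0.21 and not called (adjusted *P* = 0.427), and *chodl* fell (−0.84). *col2a1*, the main cartilage collagen, ranged from 6.05 to 9.41 at 3 DPA and from 5.17 to 7.94 at 9 DPA and did not pass (−0.84 ± 0.41, adjusted *P* = 0.2). Of 7 bone genes, 1 rose and 1 fell (14.3% each). *bmp2*, a bone morphogenetic protein, rose by 0.82 ± 0.13. *chrdl1*, which binds such proteins, fell by 0.99, a call lost without any 1 of 4 arrays. The second *chrdl1* probe was at −0.05 and not called. Among secreted and surface proteins outside these lists, *pamr1* (1.78), the protocadherin *pcdh18* (1.71) and *chst11*, which sulfates chondroitin (1.62), were among the 10 largest increases of named genes. The second *chst11* probe differed by −0.53 (adjusted *P* = 0.305).

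Cell cycle genes rose in 1 part of the cycle more than in another. Of 67 mitosis genes, 37 rose and none fell (55.2% against 2.96% of all named genes), and the median was 0.65. At an unadjusted *P* under 0.05, 52 were higher and none was lower. Of 53 DNA replication genes, 2 rose (3.77% against 2.96%), *timeless* (0.77) and the thymidine kinase *tk1* (0.76), and none fell. Their median was 0.12, and at an unadjusted *P* under 0.05, 22 were higher and none was lower. The second *timeless* probe was at 0.34 and not called. The mitotic cyclin *ccnb1* was between 7.40 and 8.38 at 3 DPA (median 7.75) and between 8.32 and 9.63 at 9 DPA (median 9.08), a rise of 2.39-fold (1.26 ± 0.17, adjusted *P* = 3.59e-05). A single limb of 9 DPA reached down into the 3 DPA range. Another *ccnb1* probe rose by 1.38, and the last was higher by 0.50, under the size threshold. The spindle motor *kif15* rose by 1.24, the kinetochore protein *cenpf* by 1.22, the midzone protein *prc1* by 1.07 and *ccna2* by 0.80. *pcna*, the clamp of the replication fork, was level (−0.04, adjusted *P* = 0.878), and the proliferation antigen *mki67* was higher by 0.36 (adjusted *P* = 0.00115), under the size threshold.

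Within the span, both list means over all 10 limbs of a day were highest at 5 DPA. The mitosis mean was 7.04 at 3 DPA, 7.92 on day 5, 7.87 on day 7 and 7.64 at 9 DPA. The DNA replication mean was 8.32, 8.67, 8.46 and 8.47 on those days. Not every mitosis gene followed this course in replicates 1 to 5 alone. There the mean of *ccnb1* was 9.46, 9.61 and 9.46 on days 5, 7 and 9. That of *cenpf* was 7.53, 7.82 and 7.73, while that of *ccna2* was 9.67, 9.57 and 9.56. The sets of replicates differed in these lists. In replicates 1 to 5, 51 mitosis and 12 replication genes were called, with medians of 0.96 and 0.25. In replicates 6 to 10, 10 and 1 were called, with medians of 0.32 and 0.02. The unadjusted *P* of the difference between sets was under 0.05 for 44 of the 67 mitosis genes, and for 1961 of all 20035 probes. The lowest adjusted *P* in the mitosis list was 0.0731.

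**Figure D4:**
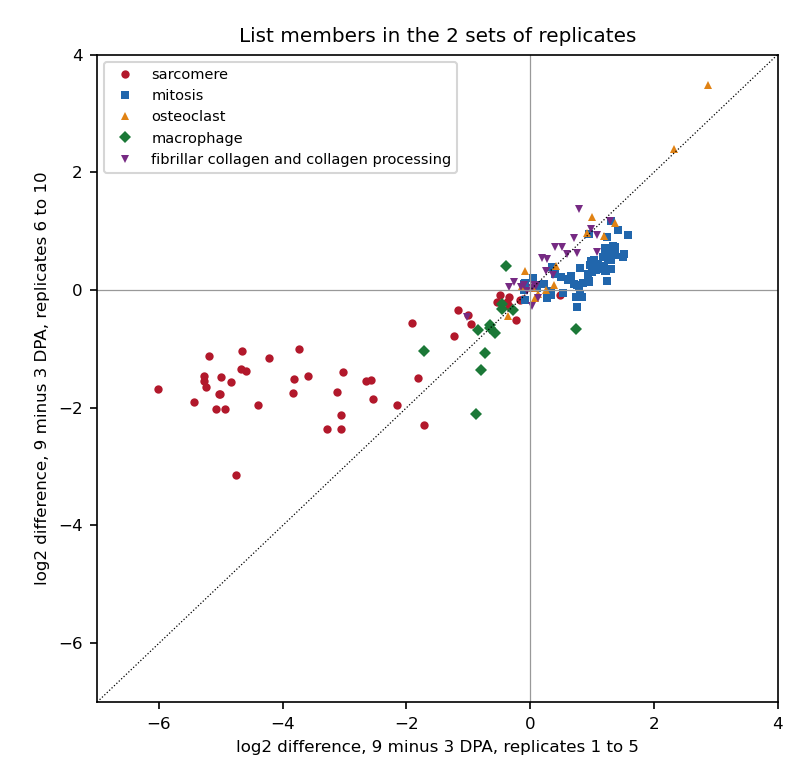
Log2 difference from 3 to 9 DPA in replicates 1 to 5 (horizontal axis) against that in replicates 6 to 10 (vertical axis) for members of 5 gene lists, with a dotted line where both are equal. Sarcomere genes lie mostly above the line (medians −3.13 and −1.48), mitosis genes mostly under it (medians 0.96 and 0.32), and *ctsk* and *calb1* lie near it at the upper right.

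Blastema and limb bud genes rose in a small group. *kazald1*, a secreted protein, had the largest increase of any named gene. It was between 8.73 and 10.96 at 3 DPA (median 9.43) and between 11.98 and 13.17 at 9 DPA (median 12.93), and rose 10.2-fold with no overlap (3.35 ± 0.23, adjusted *P* = 2.62e-08). Its mean was 6.58 on day 0, 9.53 at 3 DPA, 10.67 on day 4, 11.85 on day 5 and 12.63 on day 7. The transcription factor *mycn* rose 3.65-fold without overlap (1.87 ± 0.19, adjusted *P* = 2e-06), from a mean of 6.89 at 3 DPA, which was lower than the 8.19 of 0 DPA, to 8.76. *tbx5*, which specifies the forelimb, rose by 1.03 ± 0.18 and *lmx1b*, which specifies its dorsal side, by 0.90 ± 0.12. *dlx6*, a homeobox gene of the limb bud ridge, differed by 0.79 ± 0.24, and its call was lost without 1 of 8 arrays, replicates 4, 7 or 9 of 3 DPA or 2, 4, 6, 8 or 9 of 9 DPA (0.68 to 0.76, adjusted *P* = 0.05 to 0.0615).

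These were 5 of 34 genes in a list of blastema, limb bud and patterning genes (14.7% against 2.96%), and none fell. The list counts *kazald1*, known as a gene of the blastema, beside transcription factors and patterning genes. The second *tbx5* probe was higher by 0.40, under the size threshold. The mesenchyme gene *prrx1* and the homeobox gene *msx2* did not pass (0.24 and 0.30, adjusted *P* = 0.126 and 0.0873). Of 17 FGF pathway genes, 1 rose and 1 fell (5.88% each, against 2.96% and 2.79% of all named genes). *etv4*, a transcriptional target of FGF signaling, rose 2.5-fold (1.32 ± 0.19, adjusted *P* = 6e-05). Its second probe was higher by 0.52 (limma adjusted *P* = 0.00346), under the size threshold. *fgf13*, which acts inside the cell, fell by 0.88 on its brightest probe, while its 3 other probes were at 0.07, −0.13 and −0.09 and not called. *fgf8*, the ligand of the limb bud ridge, stayed between 3.60 and 4.34 in all 20 samples (0.12, adjusted *P* = 0.438). The study groups *dusp6* with FGF signaling, and the probe named so in its table did not pass (0.23, limma adjusted *P* = 0.185).

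In the epidermis, 1 of 29 genes named in the platform table was called, and it rose (3.45% against 2.96% of all named genes). It was the transcription factor *grhl3* (0.81, a call lost without any 1 of 12 arrays), and the list median was 0.18. The desmosome gene *dsp* was higher by 0.37 (adjusted *P* = 0.00111), under the size threshold, and *tgm1*, which crosslinks the cornified envelope, by 1.07 ± 0.40 without passing (adjusted *P* = 0.0761). The largest increase of all 20035 probes was that of a probe with no symbol in the platform table, which the study's table names *krt5*, a keratin of basal epidermal cells. It was between 4.09 and 8.73 at 3 DPA (median 5.61) and between 7.66 and 13.19 at 9 DPA (median 10.89), and rose 36.3-fold (5.18 ± 0.60, adjusted *P* = 6.25e-06). The ranges overlapped through replicate 5 of 3 DPA and replicate 9 of 9 DPA. Its mean was 6.34 at 4 DPA, 8.51 at 5 and 9.17 at 7 DPA, and near-identical keratins may share this probe. The gap junction gene *gjb6*, named in the same table, rose by 2.18 ± 0.52, and a probe named *krt17* was level (0.11). Of 2 probes named *krt12*, another keratin, 1 fell by 0.97 (adjusted *P* = 0.00172) and the other was higher by 0.37 (adjusted *P* = 0.0152), under the size threshold. Of the desmosome cadherins named there, *dsg4* rose by 0.88 (adjusted *P* = 0.0325), a call lost without any 1 of 10 arrays. *dsg2* and *dsc3* were at −0.14 and 0.22 and not called. The transglutaminases *tgm5* and *tgm3* were at 0.78 and 0.14 and not called (adjusted *P* = 0.0806 and 0.178).

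Few immediate early genes, which respond quickly to injury, were called. Of 20, 2 fell (10% against 2.79% of all named genes), the stress-induced *gadd45b* (−0.87 ± 0.09, with no overlap) and the growth factor *hbegf* (−0.86 ± 0.16), and 1 rose (5% against 2.96%), *gadd45a* (0.67), a call lost without any 1 of 14 arrays. The methods' *t* tests called 2 of the 20 lower and none higher. *fos* and *egr1* did not pass (−0.67 and −0.36, adjusted *P* = 0.304 and 0.544). Both were higher in between, on day 7, with a mean of 10.90 ± 0.64 for *fos* and 10.30 ± 0.57 for *egr1* (SD, n = 10), against 8.99 and 8.74 at 3 DPA and 8.32 and 8.39 at 9 DPA, and these differences were not tested. Chromatin, translation and trafficking genes that the study grouped by their course over the whole series were also read from their brightest probes, which need not be those the study used. None of the 18 measured was called by limma or by the methods' *t* tests, and 5 had an unadjusted *P* under 0.05. Among 17 endothelial genes, 1 rose and 1 fell (5.88% each, against 2.96% and 2.79%). The blood clotting protein *vwf* rose (0.69, with its 2 other probes at −0.06 and 0.06 and not called). *mmrn1* fell (−0.74), a call lost without any 1 of 14 arrays.

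The size of these differences also depended on the set of replicates for single probes. In a test of the interaction of day and set, 2 of 20035 probes (0.00998%) passed, among them *cyp51a1*, an enzyme of sterol synthesis, and 1961 had an unadjusted *P* under 0.05.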

How the data were processed

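The authors hybridized biotin-labeled RNA from each limb tip to a custom Affymetrix axolotl array, and the deposited values are log2 intensities that they made by RMA (robust multichip averaging) in Affymetrix Expression Console. Versions are not given in the sources used here. The log2 values were used as deposited. No column lacked a sample. Affymetrix controls (45 probes) were left out. Symbols came from the platform table. Where it names no probe, a few came from the study's supplementary table, and these entered no list count.

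The 20 arrays of 3 and 9 DPA were compared with limma 3.58.1 (R 4.3.3), by a moderated 2-sided test from lmFit and eBayes, with Benjamini-Hochberg adjustment over 20035 probes. A call needed an adjusted *P* under 0.05 and a log2 difference of at least 0.58. The interaction of day with replicates 1 to 5 or 6 to 10 was fitted on the same arrays. The methods' *t* test took unequal variances at *P* = 0.01 and 1.5-fold. The fits were tested on simulated data. Differences are given ± SE. RMA and the brightness of a probe compress differences near the floor and ceiling of the array, and 20 arrays limit the precision.

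Members and lists were chosen with earlier results of these data known. Named genes were the 10 largest increases and decreases with the same direction in both sets, up to 5 called members of each list (or the brightest where none was called), and a fixed list of names. Genes read from the supplementary table were named after their values were seen. List counts are descriptions. Same-numbered arrays correlated at 0.0156 to 0.221 in their deviations (median 0.176). The median was 0.0962 for other numbers of the same set and −0.145 between the sets. Of 10 arrays, 1 correlated best with its own number, and the numbers were not taken as pairs.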

Additional observations from a re-analysis of the deposited data

Results flagged for a closer look

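In 11 of 434 combinations of gene or list and day, 1 array lay farther from the other 9 than Dixon's limit for 10 samples. Chance alone sets about 1 in 20 such groups apart. At 9 DPA, replicate 4 was low in *kazald1* (11.98, others 12.67 to 13.17) and in *fn1* (10.71, others 11.32 to 12.00), and high in *ncf1* (7.54, others 5.58 to 6.24) and *dgat2* (6.41, others 4.64 to 5.54). Replicate 2 of 9 DPA was low in *chst11* (5.79, others 7.20 to 8.57) and in the mean of the endothelial list (4.68, others 5.07 to 5.28). Replicate 9 of 9 DPA was high in *eya2* (10.33, others 7.93 to 9.01), and replicate 3 of 9 DPA in *kif15* (9.75, others 8.52 to 9.13). At 3 DPA, replicate 10 was low in *hbegf* (7.6, others 8.25 to 8.97), replicate 7 high in *myf5* (6.83, others 4.47 to 5.42), and replicate 5 high in the probe named *krt5* (8.73, others 4.09 to 6.43).

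For 2 probes the difference from 3 to 9 DPA depended on the set of replicates. *cyp51a1* differed by 1.46 in replicates 1 to 5 and by −0.94 in replicates 6 to 10, so that the second minus the first was −2.40 (limma interaction, adjusted *P* = 0.0415). *ccdc28a* differed by 0.54 and −0.10 (−0.64, adjusted *P* = 0.0415).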

How the results depend on the processing

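The main counts were 480 up, 583 down and 1063 probes in all. A 2-fold threshold gave 148, 331 and 479, and no minimum size gave 1865, 1124 and 2989. Replicates 6 to 10 alone gave 233, 273 and 506, against 689 up and 625 down in replicates 1 to 5 alone. The methods' *t* test at *P* = 0.001 gave 366 down probes. Leaving out 1 array gave 438 to 512 up, 538 to 612 down and 991 to 1114 in all. The other settings, which were dim probes left out, a model over the whole series, the *t* test of the methods at *P* = 0.01 or with adjustment, median centring, a second quantile normalization, the set of replicates as a block and array weights, stayed within 1.5 times. With replicate number as a block there were 492 up and 608 down probes, and 1 of 10 arrays correlated best with its own number. The interaction count was 2 with or without a minimum size.

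Of 119 called genes named by the rule or read from the study's table, 117 kept their call with the replicate block, 116 in the model over the whole series, 72 in replicates 6 to 10 alone and 84 with the *t* test at *P* = 0.001, and none reversed. Mitosis genes called up were 37, and 23 when read from each gene's second probe, 9 at 2-fold and 10 in replicates 6 to 10. Sarcomere genes called down were 38, and 25 in replicates 6 to 10 and 19 by the *t* test at *P* = 0.001. DNA replication genes called up went from 2 to 12 without a minimum size. Osteoclast genes called up were 3 in replicates 6 to 10, and macrophage genes called down were 3 in each set alone.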
